A study of Homo sapiens with 6 samples.

Results

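The expression of 10 genes of the nuclear lamina and of the high mobility group (HMG) families was examined in MDA-MB-231 shBry cells against MDA-MB-231 shNC cells. The genes were the lamin genes LMNA, LMNB1 and LMNB2, the lamina-associated genes LBR and TMPO, and the HMG genes HMGB1, HMGB2, HMGB3, HMGA1 and HMGA2. They were chosen by their symbols and make up 10 of the 54259 gene symbols listed. RNA-Sequence data of 3 shBry libraries and 3 shNC libraries were available. MDA-MB-231 is a triple-negative, mesenchymal line of human breast cancer. A hairpin RNA that targets brachyury was put into the shBry cells, and a control hairpin into the shNC cells. The hairpin sequences and the number of clones used for MDA-MB-231 are not given in the sources used here, and no source says that the 3 libraries of a group came from separate cultures, so p-values measure the spread between these libraries, which may be technical.

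The lamins are intermediate filament proteins that form a meshwork under the inner nuclear membrane. LMNA encodes the A-type lamins A and C, and LMNB1 and LMNB2 encode the B-type lamins, which stay bound to the membrane by a farnesyl group. The lamin B receptor (LBR) and the lamina-associated polypeptides encoded by TMPO tie chromatin to this meshwork. HMGB proteins bend DNA through HMG boxes, and HMGA proteins bind AT-rich DNA through AT hooks. In senescent cells, loss of lamin B1 and HMGB2 and a rise of HMGA proteins on chromatin are widely used markers, while HMGB1 leaves the nucleus as a protein, which RNA counts do not show.

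Between 19319411 and 22985371 counts were listed per library, and a count of 0 allows up to 0.155 CPM (counts relative to the library total, scaled alike in every library) in the smallest library, as 3 counts of the total, which covers counting error only. Brachyury, listed under its older symbol T, had 0 counts in all 6 libraries, which leaves the knockdown unchecked in these data. The series text calls the RNA pericardial, while the labels name MDA-MB-231. The 8 markers of this line summed to between 7930 and 9270 CPM in each library after TMM normalization, which scales libraries for their composition, 7 luminal markers to between 17.3 and 24.4 CPM, and 8 mesothelial and heart muscle markers to between 40.1 and 57.7 CPM. Among the luminal markers, ESR1 and PGR had at most 1 count, while GATA3 reached 13.9 CPM and FOXA1 7.16 CPM. Of the mesothelial markers, which bear on the word pericardial, MSLN had between 27.6 and 49.2 CPM and LRRN4 between 3.05 and 7.79 CPM. Both were higher in every shBry library than in every shNC library. CALB2 went the other way and was lower in every shBry library than in every shNC library. It reached 11.1 CPM in shNC replicate 3 and at most 1.37 CPM in the other libraries. WT1 and UPK3B had at most 7 and 5 counts in a library. The heart muscle genes MYH6 and NPPA were at 0. The part of cells of another type in the results was not tested. Among the leukocyte markers, PTPRC and TYROBP were at 0 in every library and only CD68, which many cell types use, had more than 10 counts. The 5 fibroblast markers summed to between 29.7 and 35.3 CPM in each library. Of these, COL1A1 had between 19 and 23.3 CPM and PDGFRB between 9.52 and 13 CPM. COL3A1 and LUM had at most 16 and 2 counts in a library, and DCN was at 0. The first principal component, with 79.1% of the variance of log2 CPM, separated the groups, and replicates differed beyond sampling noise (chi-square over its degrees of freedom from 4.7 to 15.5).

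The 5 lamin and lamina genes were all called lower in shBry, while of the 5 HMG genes 1 was called. A gene was called at a Benjamini-Hochberg adjusted p below 0.05 over all 15277 genes tested and a fold change above 1.5, by the quasi-likelihood test of edgeR, and SE below stands for the standard error on the log2 scale, shBry relative to shNC. All 10 genes passed the expression filter. Of these, 6 were called, all lower in shBry: LMNB1, TMPO, LMNB2, LMNA, LBR and HMGB3. Among all genes tested, 32.4% were called, 15.2% lower and 17.1% higher. Without the fold change limit 7 genes reached an adjusted p below 0.05, all lower, where 53.3% of all genes did so, 25.3% lower and 28% higher. The same 7 genes had all 3 shBry values below all 3 shNC values, as did 28.9% of all genes, while 30.6% had all 3 above and 59.5% did not overlap in either direction. The median log2 fold change of the 10 genes was -0.63, and that of all genes was 0.03. Lower counts in a bulk culture can come from fewer cells that use a gene or from less RNA per cell, which cannot be told apart here.

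**Figure D1:**
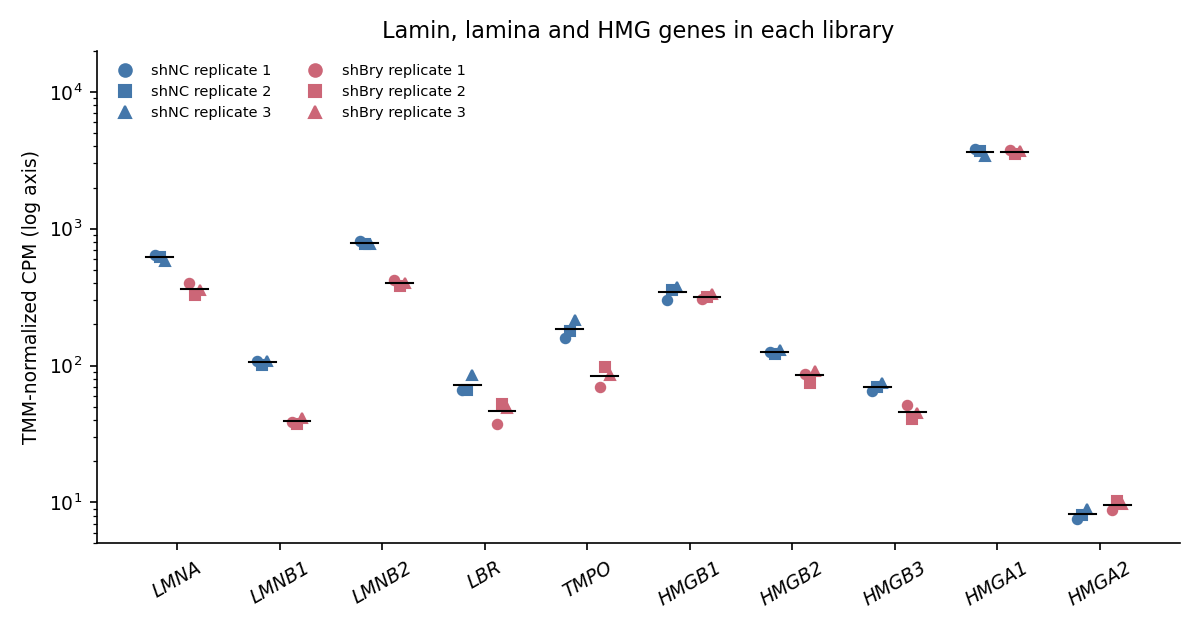
TMM-normalized CPM (log axis) of the 10 genes in each library, with shNC in blue, shBry in red, 1 marker shape per replicate and a black line at the group mean. The shBry values lie below the shNC values for LMNA, LMNB1, LMNB2, LBR, TMPO, HMGB2 and HMGB3, and the groups overlap for HMGB1, HMGA1 and HMGA2.

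LMNB1, on chromosome 5 of GRCh38 from 126776623 to 126837020, showed the largest fall of the 10 genes. It had 108, 101 and 107 TMM-normalized CPM in shNC replicates 1, 2 and 3, and 38.4, 37.6 and 41.5 CPM in shBry replicates 1, 2 and 3. The groups were far apart, and the libraries within a group differed little. The mean fell from 105 ± 3.99 to 39.2 ± 2.08 CPM (SD, n = 3), 2.69-fold lower in shBry, and its log2 fold change was -1.43 (SE 0.09, edgeR adjusted p = 9.01e-09). Of all genes tested, 3% had a lower log2 fold change. Leaving out any 1 library gave values between -1.48 and -1.41.

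LMNB2, on chromosome 19 from 2427638 to 2456996, had 813, 774 and 769 CPM in the shNC libraries and 420, 380 and 399 CPM in the shBry libraries. The mean fell from 785 ± 24.1 to 399.5 ± 20 CPM (SD, n = 3), at log2 -0.97 (SE 0.08, edgeR adjusted p = 1.32e-07). Both B-type lamin genes were therefore lower, with no overlap between groups. Another gene, TIMM13, overlaps part of LMNB2, and 5.6% of the exon bases of LMNB2 lie in exons of other genes.

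LMNA, on chromosome 1 from 156082573 to 156140089, was lower as well, with a smaller estimated change than the B-type genes, a difference that was not tested. It had 648, 619 and 584 CPM in shNC and 399, 327 and 358 CPM in shBry. The mean fell from 617 ± 31.6 to 361 ± 36 CPM (SD, n = 3), 1.71-fold lower, at log2 -0.77 (SE 0.09, edgeR adjusted p = 4.83e-06). Lamin A and lamin C are spliced from the same gene, and counts per gene do not separate them.

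The proportions of the lamin transcripts also differed between the groups. Levels of different genes were compared as CPM per kilobase of merged exons of the coding transcripts. The ratio of LMNA to LMNB1 was 4.23, 4.34 and 3.84 in shNC replicates 1, 2 and 3 and 7.35, 6.14 and 6.08 in shBry replicates 1, 2 and 3. All shBry ratios lay above all shNC ratios. The ratio of LMNB2 to LMNB1 did not overlap either and went from 4.74 ± 0.17 to 6.49 ± 0.437 (SD, n = 3), and that of LMNA to both B-type genes together went from 0.721 ± 0.0247 to 0.869 ± 0.0486. LMNB1 made up 10.1% ± 0.451 of the lamin transcripts per kilobase in shNC and 7.17% ± 0.558 in shBry (SD, n = 3). The share of LMNA went from 41.9% ± 0.841 to 46.5% ± 1.38, and that of LMNB2 from 48% ± 0.395 to 46.4% ± 0.933. LMNA and LMNB2 were at 85.9 ± 8.55 and 85.5 ± 4.29 CPM per kilobase in shBry, within their spread. These ratios and shares are descriptions, and no test was run on them. With the longest transcript in place of merged exons, LMNA stood above LMNB2 in both groups, with 193 against 168 CPM per kilobase in shNC.

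**Figure D2:**
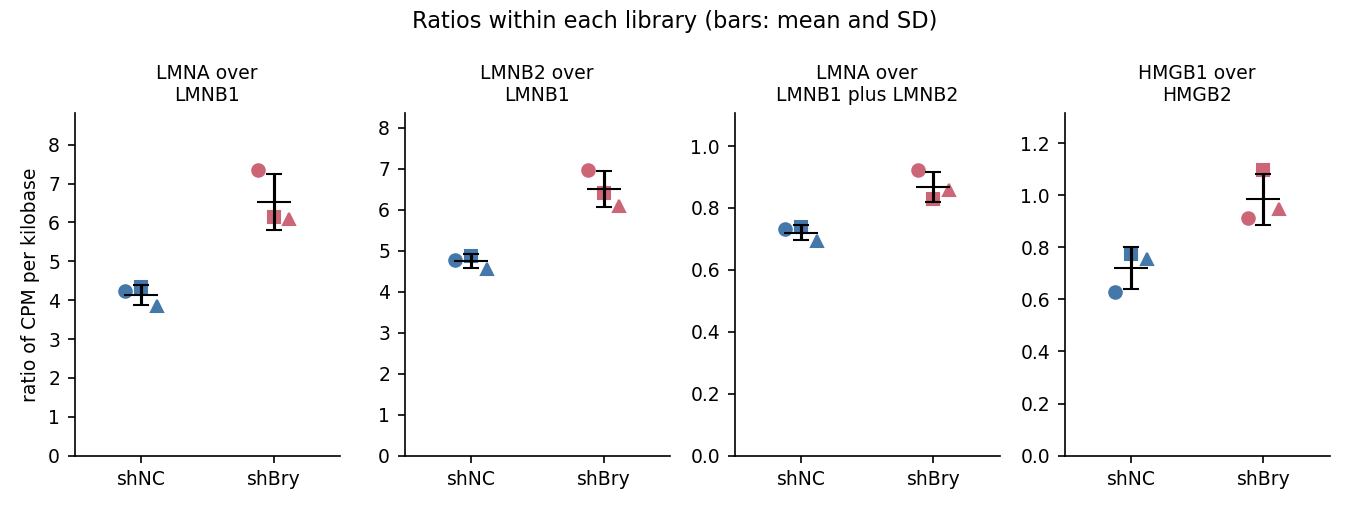
Ratios of CPM per kilobase of merged exons within each library for 4 pairs of genes or gene groups, with shNC in blue and shBry in red (circles, squares and triangles for replicates 1, 2 and 3) and black bars for the mean and SD of 3 libraries. The ratio of LMNA to LMNB1 has a mean of 4.14 in shNC and 6.52 in shBry, and in all 4 panels the shBry values lie above the shNC values.

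TMPO, on chromosome 12 from 98515512 to 98550379, encodes the LAP2 proteins, of which some are anchored in the inner nuclear membrane and others bind A-type lamins inside the nucleus. It had 160, 180 and 215 CPM in shNC and 69.9, 97.7 and 85.8 CPM in shBry. The groups did not overlap. The mean fell from 185 ± 27.8 to 84.5 ± 14 CPM (SD, n = 3), 2.18-fold lower, at log2 -1.13 (SE 0.13, edgeR adjusted p = 4.19e-06). Leaving out any 1 library gave log2 values between -1.26 and -1.01. The antisense gene TMPO-AS1, named after its values were seen, starts 910 bases inside TMPO on the other strand and covers 8.3% of its exon bases. It had 172, 182 and 165 counts in shNC and 40, 27 and 59 in shBry, or log2 -2.07 (SE 0.24, edgeR adjusted p = 7.21e-06). The strand setting of the counting is not given in the sources used here, so reads in the shared stretch cannot be assigned to either gene.

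LBR, on chromosome 1 from 225401502 to 225428925, encodes a membrane protein that binds B-type lamins and heterochromatin and also acts as a sterol reductase. It had 65.7, 66.8 and 84.6 CPM in shNC and 37.6, 52.6 and 48.5 CPM in shBry. The mean fell from 72.4 ± 10.6 to 46.3 ± 7.78 CPM (SD, n = 3), 1.56-fold lower, at log2 -0.64 (SE 0.13, edgeR adjusted p = 0.000782). The call rested on single libraries. Without shBry replicate 1, the lowest library, the log2 fold change was -0.52, and without shNC replicate 3, the highest, it was -0.54, both under the limit of 0.585 that corresponds to 1.5-fold. The adjusted p stayed below 0.05 in both fits (0.00136 and 0.00485, edgeR).

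**Figure D3:**
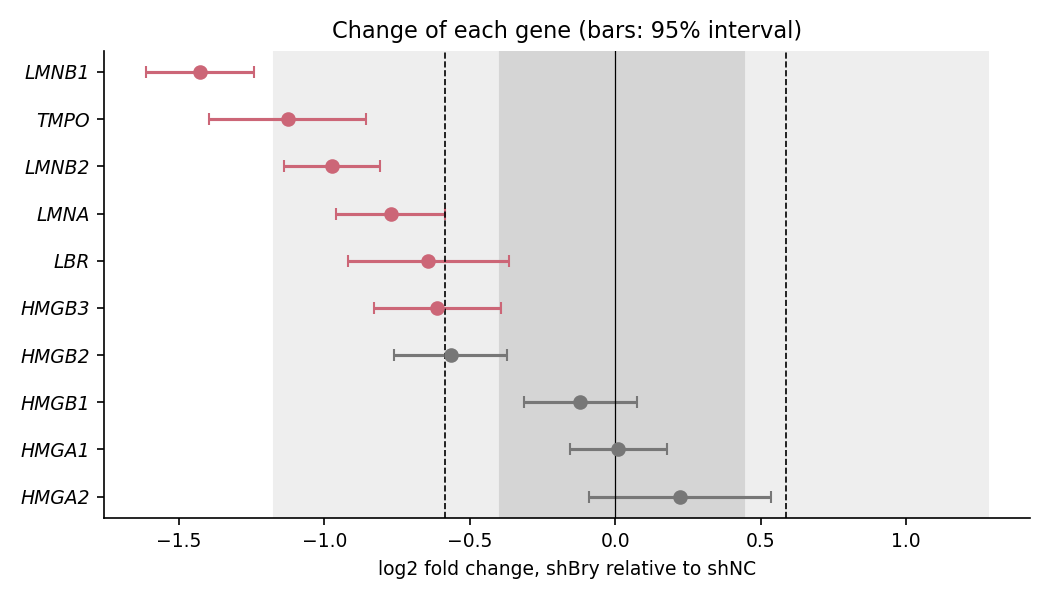
Log2 fold change of each gene, shBry relative to shNC, with bars for the 95% interval, red for called genes and grey for others. Dashed lines mark the fold change limit of 1.5, the darker band holds the central range of all 15277 tested genes (25th to 75th percentile, -0.397 to 0.444) and the lighter band their 5th to 95th percentile (-1.17 to 1.28). LMNB1 lies outside the lighter band.

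Of the 3 HMGB genes, 1 was called, where 32.4% of all genes were called. HMGB3, on chromosome X from 150980509 to 150990775, had 65.6, 69.3 and 74.6 CPM in shNC and 51.4, 40.6 and 45.2 CPM in shBry, or log2 -0.61 (SE 0.10, edgeR adjusted p = 0.000166). It was 1.53-fold lower, just past the limit, and without shBry replicate 2 the log2 fold change was -0.55, under it. HMGB2, on chromosome 4 from 173331695 to 173335125, had 125, 121 and 130 CPM in shNC and 87.2, 74.8 and 91.9 CPM in shBry. The groups did not overlap, and the mean went from 125 ± 4.54 to 84.6 ± 8.8 CPM (SD, n = 3). Its log2 fold change of -0.57 (SE 0.09, edgeR adjusted p = 0.000116) was 1.48-fold, just short of the limit, so HMGB2 was not called. It passed the limit without TMM scaling (-0.59), with the size factors of DESeq2 (-0.59), with upper-quartile scaling (-0.61) and without the expression filter (-0.59). It also passed without shBry replicate 1, shBry replicate 3 or shNC replicate 2, with log2 fold changes of -0.59, -0.63 and -0.61.

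HMGB1, on chromosome 13 from 30456704 to 30617597, had 301, 359 and 376 CPM in shNC and 304, 315 and 334 CPM in shBry. The groups overlapped. The log2 fold change was -0.12 (SE 0.09, edgeR adjusted p = 0.279), and the 95% interval ran from -0.31 to 0.07, so a fall of 1.5-fold lay outside it. HMGB1 has many processed copies in the genome. The table holds 48 rows named as HMGB1 pseudogenes, of which 11 had counts, and together they had 31.7% as many counts as HMGB1. HMGB1P5 alone, on chromosome 3, had 21.4% and HMGB1P6, on chromosome 15, had 9.57%. Stretches of 50 bases that also occur in transcripts of other genes made up 10.7% of those in HMGB1 transcripts, so reads could be split between the gene and its copies. With all pseudogene rows added, the log2 fold change of HMGB1 was -0.15 (edgeR adjusted p = 0.149). HMGB1P5 and HMGB1P6, singled out for their counts, had log2 fold changes of -0.24 and -0.21. The ratio of HMGB1 to HMGB2, per kilobase, was 0.627, 0.775 and 0.755 in shNC and 0.91, 1.1 and 0.948 in shBry.

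Neither HMGA gene was called. HMGA1, on chromosome 6 from 34236873 to 34246231, was the most abundant of the 10 genes and had a higher mean CPM than 99.9% of the genes tested. It had 3800, 3696 and 3413 CPM in shNC and 3787, 3520 and 3681 CPM in shBry, or log2 0.01 (SE 0.08, edgeR adjusted p = 0.918). The 95% interval ran from -0.16 to 0.18, and the sign of the estimate was not stable across scalings. HMGA2, on chromosome 12 from 65824131 to 65966295, was the least abundant, with 165, 170 and 178 counts in shNC and 162, 241 and 218 in shBry. These were 7.55, 8.03 and 8.91 CPM in shNC and 8.71, 10.2 and 9.65 CPM in shBry, and the groups overlapped. The mean was 8.16 ± 0.687 CPM in shNC and 9.51 ± 0.729 in shBry (SD, n = 3), or log2 0.22 (SE 0.15, edgeR adjusted p = 0.214). Its 95% interval ran from -0.09 to 0.53. Per kilobase of merged exons, the HMGA2 level was 0.582 ± 0.0489 CPM in shNC and that of HMGA1 was 1563 ± 86.1 (SD, n = 3).

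HMGA2 transcripts are a known target of the let-7 microRNAs, which LIN28 proteins hold back. Mature let-7 was not measured here. The family shares its seed, bases 2 to 8, in capitals in the 2 members made from the host transcript MIRLET7BHG (RefSeq, GRCh38.p14), shown because that host was called higher.
hsa-let-7a-5p: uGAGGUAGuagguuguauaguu
hsa-let-7b-5p: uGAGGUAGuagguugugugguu
The site that pairs with this seed, CTACCTC, was counted over the whole length of each GENCODE transcript, whatever the region. It occurs up to 5 times in a transcript of HMGA2, up to 2 times in LMNA and in LBR and 1 time in HMGA1. None of LMNB1, LMNB2, TMPO, HMGB1, HMGB2 and HMGB3 holds it. The LMNA transcript with 2 sites is 848 bases long. No rate over other genes was computed, and a match is not a known target site. MIRLET7BHG rose from 6.83 ± 1.51 to 12.6 ± 2.1 CPM (SD, n = 3), or log2 0.88 (edgeR adjusted p = 0.000889). Of 10 genes of the let-7 axis, 7 were tested, 2 were called higher and 1 lower, or 42.9% called against 32.4% of all genes. DROSHA, which encodes the nuclear microRNA processing enzyme, had a log2 fold change of -0.53 and was not called, but it passed the limit without shNC replicate 2 (-0.61). IGF2BP3, an RNA-binding protein gene, fell with log2 -0.76 (edgeR adjusted p = 0.00405), and MALSU1 covers 17.9% of its exon bases. MIR99AHG, at most 40 counts in a library, had log2 1.15 (edgeR adjusted p = 0.032), and this call was lost without shBry replicate 2, shNC replicate 1 or shNC replicate 2 (0.71, 0.89 and 1.22) and with DESeq2 (1.13). LIN28A reached at most 10 counts in a library and LIN28B at most 4.

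The bases before 1 start site of each gene were read for motif words that are known from cell cycle promoters. RefSeq promoter sequences (GRCh38.p14) were matched for 8 of the 10 genes. Only 1 start was used for each gene, the first listed, and the 250 bases before it were searched on both strands. Other starts of these genes were not searched. LMNA, for example, has 25 GENCODE transcripts, and the HMGB1 start used lies inside its gene model, which runs from 30456704 to 30617597. The words were CCAAT, the site of the factor NF-Y, the words TTTGAA and TTCGAA of the cell cycle genes homology region (CHR), and the words TTTCGCGC, TTTGGCGC, TTTCCCGC and TTTGCCGC for E2F factors. The sequences of the 4 genes that fell most and of HMGB1, which did not, are given 5′ to 3′ on the strand of the gene so that they can be compared, with matched words in capitals. They lie at chr5:126776373-126776622 (plus strand) for LMNB1, chr12:98515323-98515572 (plus) for TMPO, chr19:2456960-2457209 (minus) for LMNB2, chr1:156082323-156082572 (plus) for LMNA and chr13:30465937-30466186 (minus) for HMGB1.
LMNB1: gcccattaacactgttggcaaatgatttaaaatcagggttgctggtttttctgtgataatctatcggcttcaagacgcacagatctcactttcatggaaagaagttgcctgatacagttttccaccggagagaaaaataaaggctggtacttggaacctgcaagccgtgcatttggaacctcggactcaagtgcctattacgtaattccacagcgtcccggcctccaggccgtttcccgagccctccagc
TMPO: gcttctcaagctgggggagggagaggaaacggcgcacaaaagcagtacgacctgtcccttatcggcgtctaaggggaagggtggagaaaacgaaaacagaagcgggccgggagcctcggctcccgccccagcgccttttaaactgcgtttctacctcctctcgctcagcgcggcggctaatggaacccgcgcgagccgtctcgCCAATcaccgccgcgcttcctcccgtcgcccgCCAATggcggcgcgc
LMNB2: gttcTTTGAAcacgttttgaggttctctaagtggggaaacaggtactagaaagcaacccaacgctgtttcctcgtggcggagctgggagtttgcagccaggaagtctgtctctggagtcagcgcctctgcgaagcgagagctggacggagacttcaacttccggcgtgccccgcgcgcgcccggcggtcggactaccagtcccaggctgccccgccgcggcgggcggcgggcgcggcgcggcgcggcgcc
LMNA: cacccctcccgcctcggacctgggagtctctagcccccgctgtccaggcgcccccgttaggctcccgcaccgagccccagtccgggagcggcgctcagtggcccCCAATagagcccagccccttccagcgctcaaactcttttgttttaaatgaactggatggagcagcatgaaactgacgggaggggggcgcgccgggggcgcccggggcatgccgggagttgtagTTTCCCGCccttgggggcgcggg
HMGB1: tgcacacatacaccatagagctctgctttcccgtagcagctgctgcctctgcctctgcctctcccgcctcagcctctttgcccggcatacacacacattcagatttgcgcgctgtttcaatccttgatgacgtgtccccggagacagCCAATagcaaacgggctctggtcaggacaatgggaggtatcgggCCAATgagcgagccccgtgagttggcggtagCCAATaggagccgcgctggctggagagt
CCAAT occurred in 4 of the 8 promoters, 2 times in TMPO, 1 time in LMNA and 3 times in both HMGB1 and HMGB3, against 34.7% of the 10516 promoters of tested genes. A CHR word occurred in LMNB2 and HMGB3, against 9.42% of those promoters. An E2F word occurred in LMNA alone of the 8, against 4.49%. LMNB1, LBR and HMGA1 held none of these words in the 250 bases before the start used. Words were thus found both among genes that were called and in HMGB1, which was not. A match is a description of letters and not a bound site.

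**Figure D4:**
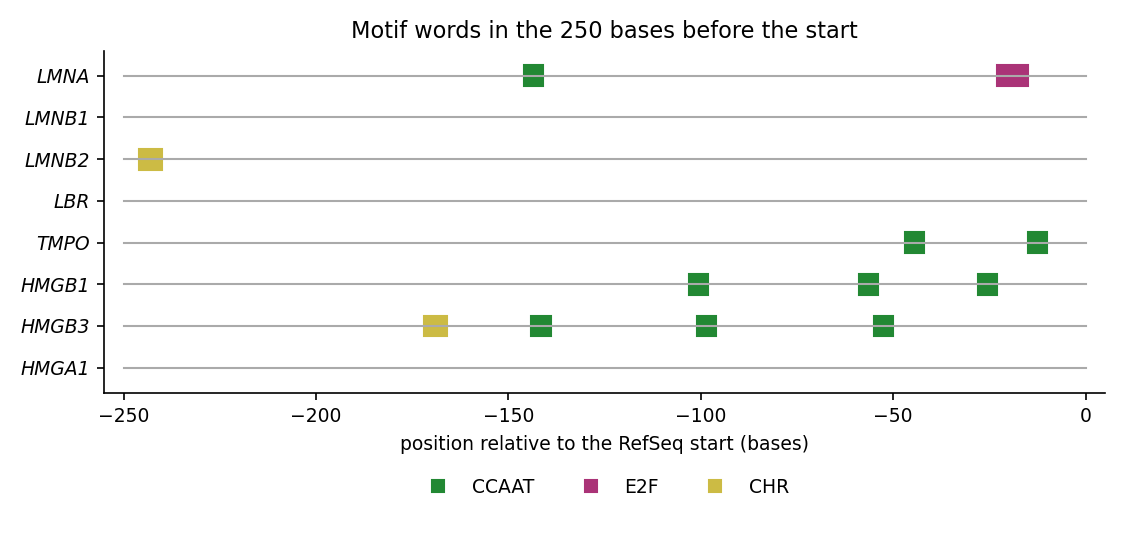
Positions of CCAAT (green), E2F (purple) and CHR (yellow) words, on either strand, in the 250 bases before the RefSeq start used for each of the 8 genes with a promoter sequence. That start is at 0 on the x axis, and other starts were not searched. TMPO, HMGB1 and HMGB3 hold 2, 3 and 3 CCAAT words, and LMNB1, LBR and HMGA1 hold no word.

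Of 15 tested genes for inner nuclear membrane proteins and chromatin partners of the lamina, 2 were called lower and 1 higher, or 20% against 32.4% of all genes, with a median log2 fold change of -0.17. Without the fold change limit, 7 were lower and 1 higher at an adjusted p below 0.05, against 25.3% and 28% of all genes. Values given for single genes are log2 fold changes here and in the paragraphs that follow. LEMD2, a LEM-domain membrane protein gene, fell with -0.66 (edgeR adjusted p = 2.15e-05). VRK1, named after its values were seen, encodes a kinase of the chromatin protein BANF1 and fell with -0.65 (edgeR adjusted p = 4e-04), but it had -0.56, under the limit, without shNC replicate 3. TMEM43 rose with 0.63 (edgeR adjusted p = 8.74e-06), but it too was under the limit, with 0.58, without shNC replicate 3, so this library decided both calls. BANF1 and ANKLE2 had -0.52 and -0.48, short of the fold change limit (edgeR adjusted p 0.000196 and 0.000349). Leaving out 1 library, between 1 and 4 of these genes were called lower, with 4 without shBry replicate 2 and 1 without shNC replicate 3.

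Of the 5 genes for SUN proteins and nesprins, which join the lamina to the cytoskeleton, SYNE2 fell from 52.1 ± 8.84 to 26.7 ± 6.33 CPM (SD, n = 3), or log2 -0.96 (edgeR adjusted p = 0.000158). SYNE3 had 0.60 (edgeR adjusted p = 0.000678), which was under the limit without shBry replicate 1 (0.56) or shNC replicate 3 (0.46) and with library sizes without TMM (0.58), DESeq2 (0.57), upper-quartile scaling (0.56) or no expression filter (0.57). SUN1, SUN2 and SYNE1 were not called, so 40% of these genes were called, against 32.4% of all genes. Of the 5 genes for lamin processing, 2 were called lower and none higher, or 40% called against 32.4% of all genes. ICMT, which encodes the enzyme that methylates farnesylated lamins, fell from 191 ± 7.44 to 94 ± 3.96 CPM (SD, n = 3), or log2 -1.03 (edgeR adjusted p = 1.03e-07). FNTB, the beta subunit gene of farnesyltransferase, fell with -0.99 (edgeR adjusted p = 1.14e-05), but a read-through gene, CHURC1-FNTB, covers 42.1% of its exon bases. ZMPSTE24 and RCE1, which encode proteases for farnesylated proteins, each had 0.27 and were not called (edgeR adjusted p 0.0528 and 0.0612).

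Other HMG-box and HMGN genes had a median log2 fold change of -0.14. Of 16 tested, 4 were called, all lower, or 25% against 32.4% of all genes. HMG20B, a subunit gene of a histone demethylase complex, fell from 247 ± 15.9 to 69.9 ± 1.32 CPM (SD, n = 3), or log2 -1.82 (SE 0.08, edgeR adjusted p = 4.87e-10), a larger fall than that of any of the 10 genes. The nucleosome-binding genes HMGN5 and HMGN3 fell with -1.01 and -0.83, and SSRP1, a subunit gene of the histone chaperone FACT, fell with -0.73 (edgeR adjusted p 5.8e-05, 0.000503 and 4.32e-06). The antisense gene HMGN3-AS1 covers 19% of the exon bases of HMGN3.

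The other markers that accompany lamin B1 loss in senescence were read in the same fit. All 12 proliferation genes were called lower, against 15.2% of all genes, with a median log2 fold change of -1.25. MKI67, which encodes the Ki-67 antigen, fell from 317 ± 43.3 to 88.4 ± 13.3 CPM (SD, n = 3), or log2 -1.84 (edgeR adjusted p = 2.1e-08), and MCM2, PLK1, RRM2 and TYMS had -1.64, -1.70, -1.78 and -1.29. Other genes cover 46.6% of the exon bases of TYMS, 23.6% of those of MCM2 and 20.2% of those of RRM2. LMNB1, with -1.43, lay within the range of this list, from -1.84 to -0.64. LMNB1 and HMGB2 are transcribed with the cell cycle, and the part of the fall in proliferation genes in their values was not tested. Of 12 tested genes of histone chaperones and senescence heterochromatin, 7 were called, all lower, with a median of -0.65. This was 58.3%, against 32.4% of all genes, and the part of the fall in proliferation genes in it was not tested. Among the called genes, ASF1B, CHAF1A, DNMT1 and CHAF1B fell with -1.50, -1.42, -0.97 and -1.26. HIRA and ASF1A, chaperone genes of heterochromatin foci singled out for that role, had -0.13 and 0.17 and were not called. Of the exon bases of HIRA, 66.5% lie in exons of C22orf39.

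Of 11 arrest genes, 8 were tested, of which 1 was called higher and 2 lower, or 37.5% called against 32.4% of all genes. CDKN1A, the gene of the kinase inhibitor p21, was the only one called higher, with 62.6 ± 5.07 CPM in shNC and 274 ± 16.4 in shBry (SD, n = 3), or log2 2.13 (edgeR adjusted p = 2.46e-10). RBL2, a pocket protein gene, fell with -0.83 (edgeR adjusted p = 1.21e-05), with 18.2% of its exon bases in exons of other genes. The related RBL1 had -0.56 and was not called. It passed the limit without shBry replicate 2 (-0.68) or shNC replicate 2 (-0.65), and also with upper-quartile scaling or no expression filter. CDKN2A and CDKN2B were at 0 counts in all 6 libraries, and MDA-MB-231 is known to lack this locus. Of 23 tested secreted factors of senescence, 20 were called higher and 1 lower, against 17.1% and 15.2% of all genes. Their median log2 fold change was 3.43, with CSF2, CXCL8, IL1A and CXCL2 at the smallest adjusted p. Some passed the expression filter only through their shBry counts, such as GDF15 and MMP10, with at most 0.183 and 0.0945 CPM in shNC. The count and the median therefore favour genes high in shBry. Between 15 and 20 were called higher under the alternatives. CCL2, named after its values were seen, was the factor called lower, with -1.61. GLB1, the gene of the beta-galactosidase used as a senescence stain, was singled out for that use and had -0.30. No test of a difference between lists was run.

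**Figure D5:**
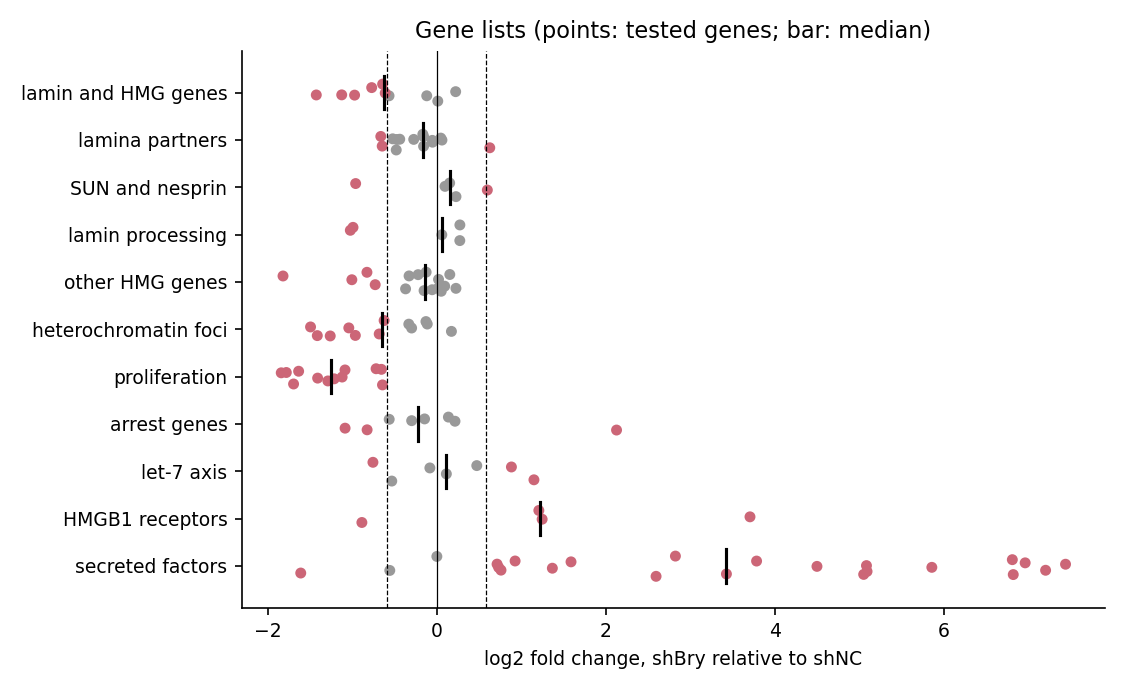
Log2 fold changes, shBry relative to shNC, of the 10 lamin and HMG genes and of 10 gene lists, with red points for called genes, grey points for other tested genes, a black bar at each median and dashed lines at the fold change limit of 1.5. The medians are -0.63 for the lamin and HMG genes, -1.25 for the proliferation genes and 3.43 for the secreted factors.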

How the data were processed

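RNA of 3 MDA-MB-231 shBry and 3 MDA-MB-231 shNC samples was sequenced. The deposited values are raw counts, whole reads assigned to each gene symbol and not normalized. The submitters' processing notes name HISAT2 2.0.4, HTSeq and GRCh38, while the annotation and the strand setting are not given in the sources used here. Samples were grouped by the shRNA label. From the counts, filterByExpr kept genes (min.count 10), TMM gave the scaling, and edgeR 4.0.16 (R 4.3.3) compared the groups by its quasi-likelihood test, with Benjamini-Hochberg adjustment over all genes tested. The study's limits (p below 0.05, fold change above 1.5) were applied to adjusted p. Standard errors were the log2 fold change over the square root of F, and 95% intervals used the degrees of freedom of that test. Alternatives used limma 3.58.1 (voom), DESeq2 1.42.0, other scalings and filters, other fold change limits, pseudogene rows, a replicate block and each library left out. The edgeR, limma and DESeq2 fits were tested on simulated data. Gene models came from GENCODE 29, matched by symbol for all 10 genes.

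The 10 genes and the gene lists were chosen with earlier results of these data known. List genes were put together by hand from textbook roles. Context genes named were the 4 with the smallest adjusted p in each list plus CDKN1A and MKI67, and others are marked where they occur. Libraries held between 19319411 and 22985371 counts. Some genes of the lists are not reported here by name.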

Additional observations from a re-analysis of the deposited data

How the results depend on the processing

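The number of the 10 lamin and HMG genes called was between 5 and 7 under all alternatives other than a fold change limit of 2, which left 2 (LMNB1 and TMPO) of the 6. Over all genes, 2297 were called with a limit of 2 and 8139 with no limit, against 4945. Leaving out 1 library at a time, between 5 and 7 of the 10 genes and between 4587 and 5025 of all genes were called, and LMNA, LMNB1, LMNB2 and TMPO were called lower in all 6 of these fits. The median of the 10 genes lay between -0.69 and -0.58 over all alternatives. HMGA1 changed sign around 0, with -0.0085 for library sizes without TMM, -0.011 with DESeq2, -0.028 with upper-quartile scaling, -0.016 with no expression filter, -0.00040 with at least 10 counts in every library, and between -0.060 and 0.037 with a library left out. Of 812 values of 48 other genes under alternatives, 777 kept their status, called or not called, 25 lost a call and 10 gained one. None changed sign, which could not happen where only the fold change limit or the p adjustment was changed.

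The replicate block left 6 genes called. The numbers did not pair the libraries: the correlations of same-numbered deviations were 0.246, -0.129 and -0.0539 for replicates 1, 2 and 3, and shBry replicates 2 and 3 did not correlate best with their own number. With the block, 4914 genes were called. Depth limits HMGA2 most, with 162 to 241 counts in a library.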

Other observations

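Genes for receptors and partners of HMGB1 outside the cell were mostly near 0 in these cells. Of 9 genes, 4 were tested, and 3 were called higher and 1 lower, against 17.1% and 15.2% of all genes. Of these, TREM1 passed the expression filter only through its shBry counts. With at least 10 counts required in every library, 2 were called higher. TREM1, an amplifier of innate immune signals, rose from 0.284 ± 0.204 to 3.79 ± 0.581 CPM (SD, n = 3), or log2 3.71 (edgeR adjusted p = 1.53e-06). Its shNC values of 0.183, 0.52 and 0.15 CPM lay near the level of 3 counts, 0.138 to 0.152 CPM in those libraries. The size of the rise depended on them, with log2 4.44 without shNC replicate 2, the highest of the 3. TLR9 and CD24 rose with log2 fold changes of 1.21 and 1.25, and TLR4 fell with -0.89 (edgeR adjusted p 0.000336, 0.00126 and 0.00233). The gene AC097637.1 covers 86.3% of the exon bases of TLR9. AGER, the gene of the receptor RAGE, and the lamina gene NRM were at 0 in all libraries. In their stretch of chromosome 6, from GNL1 to RING1, 86 of the 118 coding genes listed had no counts, so their levels cannot be read from these counts. HMGA1 lies outside this stretch.

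Within the groups, the extreme libraries for LBR and TMPO were those at the opposite extreme for LMNA in the cases given here. In shBry, replicate 1 was lowest for LBR and TMPO (37.6 and 69.9 CPM) and highest for LMNA (399 CPM), while replicate 2 was highest for both (52.6 and 97.7 CPM) and lowest for LMNA (327 CPM). In shNC, replicate 3 was highest for LBR and TMPO (84.6 and 215 CPM) and lowest for LMNA (584 CPM). On the second principal component of all genes, shBry replicate 1 was at 17.8, shBry replicate 2 at -22.2 and shNC replicate 3 at -15.6. This order was noticed after the values were seen, with 3 libraries a group, and it was not tested.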
